A study of Homo sapiens with 24 samples.

Results

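Phosphorylation of the alpha subunit of the translation initiation factor eIF2 is set by 4 kinases and by 2 regulatory subunits that bring protein phosphatase 1 (PP1) to eIF2. These 6 genes (EIF2AK1, EIF2AK2, EIF2AK3, EIF2AK4, PPP1R15A and PPP1R15B) were taken by symbol from the deposited count table, which held 37411 genes. All 6 were present and all 6 passed the filter on low counts.

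The libraries came from PC9, an established human non-small cell lung cancer line, grown in RPMI medium. Cells were rinsed and given medium with or without asparagine, together with vehicle (0.004% DMSO) or 200 nM ISRIB, and total RNA was collected 6 or 24 h later. This made 8 groups of 3 biological replicates: vehicle or ISRIB, with or without asparagine, at 6 or 24 h. All 8 groups are the same line, and the labels name no genetic change in any of them.

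Each kinase answers to a different stress. EIF2AK1 (HRI) senses lack of heme and, through OMA1 and DELE1, mitochondrial stress. EIF2AK2 (PKR) binds double-stranded RNA and is an interferon-stimulated gene, EIF2AK3 (PERK) senses unfolded protein in the endoplasmic reticulum, and EIF2AK4 (GCN2) senses uncharged tRNA when amino acids are short. Phosphorylated eIF2 inhibits its exchange factor eIF2B, which lowers general translation and raises that of the transcription factor ATF4; ISRIB activates eIF2B and so blunts this response. PPP1R15A (GADD34) is the stress-induced phosphatase subunit and part of a negative feedback, and PPP1R15B (CReP) is the constitutive one. Transcript levels are not a measure of kinase or phosphatase activity.

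The 24 libraries held 16737384 to 27495861 counts over genes. Of 8 epithelial markers 7 were tested, from CDH1 at a mean of 352 CPM (read counts relative to the TMM-scaled library total) to KRT8 at 4034 CPM, while NKX2-1, a lung lineage factor, was near absent with 0 to 2 counts per library. Of 6 fibroblast, immune and endothelial markers, COL1A2, PDGFRB, PTPRC and VWF had at most 8 counts per library, and COL1A1 (mean 6.40 CPM) and PECAM1 (mean 2.36 CPM) were low but tested. Libraries differed in how counts followed transcript GC content, with slopes from -0.37 to 0.21 (log2 per 10 points of GC). The steepest negative slopes were in 3 ISRIB libraries: the third replicate given asparagine for 24 h (-0.37), the third deprived of it for 6 h (-0.35) and the first given it for 6 h (-0.19).

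The 6 genes are annotated as protein coding and lie at 6 places on GRCh38. EIF2AK1 (ENSG00000086232.12) lies on chromosome 7 from 6022244 to 6059230, minus strand, and EIF2AK4 (ENSG00000128829.11) on chromosome 15 from 39934146 to 40035591, plus strand. EIF2AK2 (ENSG00000055332.16) and EIF2AK3 (ENSG00000172071.11) both lie on the minus strand of chromosome 2, from 37099210 to 37157065 and from 88556741 to 88627576. PPP1R15A (ENSG00000087074.7) lies on chromosome 19 from 48872392 to 48876057, plus strand, and PPP1R15B (ENSG00000158615.8) on chromosome 1 from 204403387 to 204411791, minus strand. Transcript GC content was lowest in EIF2AK2 (38.7%) and highest in PPP1R15A (58.8%). The strand setting of the counting is not given in the sources used here, so reads from opposite-strand exons cannot be told apart. Such exons covered 9.59% of the exonic bases of EIF2AK1 (AIMP2, protein coding) and 14.4% of those of EIF2AK3 (AC104134.1, antisense), and less elsewhere.

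Per length, the order of the 6 transcripts depended on the group, and EIF2AK4 and EIF2AK3 were the lowest in all 8. In RPKM (CPM divided by the merged exon length in kilobases), the mean over 24 libraries was 57.7 for PPP1R15A, 42.5 for PPP1R15B, 33.5 for EIF2AK1, 21.0 for EIF2AK2, 4.59 for EIF2AK4 and 2.54 for EIF2AK3. This order was the same when the longest transcript gave the length. It did not hold in every group: with vehicle and asparagine at 24 h EIF2AK1 was at 39.1, PPP1R15B at 32.2, EIF2AK2 at 20.9 and PPP1R15A at 16.5 RPKM, and EIF2AK1 led in 3 of the 4 groups at 24 h. PPP1R15A varied most: its highest group mean was 8.65 times its lowest, against 1.80 for PPP1R15B, 1.70 for EIF2AK1, 1.34 for EIF2AK4, 1.32 for EIF2AK2 and 1.23 for EIF2AK3. Of the summed kinase level in RPKM, EIF2AK1 made up 58.9% with vehicle and asparagine at 6 h and 47.2% with ISRIB and no asparagine at 24 h, where the sum was 48.7 ± 2.67 RPKM, against 68.5 ± 1.28 RPKM with vehicle and no asparagine (SD, n = 3). These shares were not tested.

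Changes are log2 fold changes ± SE from 1 model over the 24 libraries, and a gene passed where its adjusted p was below 0.05 (edgeR quasi-likelihood test, Benjamini-Hochberg over 17409 genes). Whether libraries of 2 groups overlapped is given as a description, and the share of all genes without overlap was not computed. A bulk library averages over its cells, so fewer cells with a transcript and less of it per cell cannot be told apart. Asparagine withdrawal with vehicle asked how the genes answer to the loss of this amino acid: 1 of 6 passed at 6 h (PPP1R15A), where 4.57% of all genes did, and 0 of 6 at 24 h, where 0.00574% did. At 24 h 0 of the 6 lay below 0.05 before adjustment (edgeR), and DESeq2 and limma called 0 as well. Withdrawal with ISRIB asked the same with the response blunted: 2 of 6 passed at 6 h (EIF2AK1 and PPP1R15A; 2.30% of all genes) and 3 of 6 at 24 h (EIF2AK1, EIF2AK4 and PPP1R15A; 22.1% of all genes).

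ISRIB against vehicle in cells without asparagine gave 0 of 6 at 6 h (2.19% of all genes) and 3 of 6 at 24 h (21.7% of all genes), again EIF2AK1, EIF2AK4 and PPP1R15A. At 6 h, 1 of the 6 had an unadjusted edgeR p below 0.05, EIF2AK1, which DESeq2 called and limma did not. With asparagine present, ISRIB gave 0 of 6 at 6 h (0% of all genes) and 0 of 6 at 24 h (0% of all genes), with 0 below an unadjusted p of 0.05 in edgeR and 0 calls by DESeq2 or limma. These comparisons share groups: the vehicle libraries without asparagine serve both withdrawal and ISRIB, and the ISRIB libraries without asparagine serve both ISRIB and withdrawal with ISRIB, so their values are not independent.

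**Figure D1:**
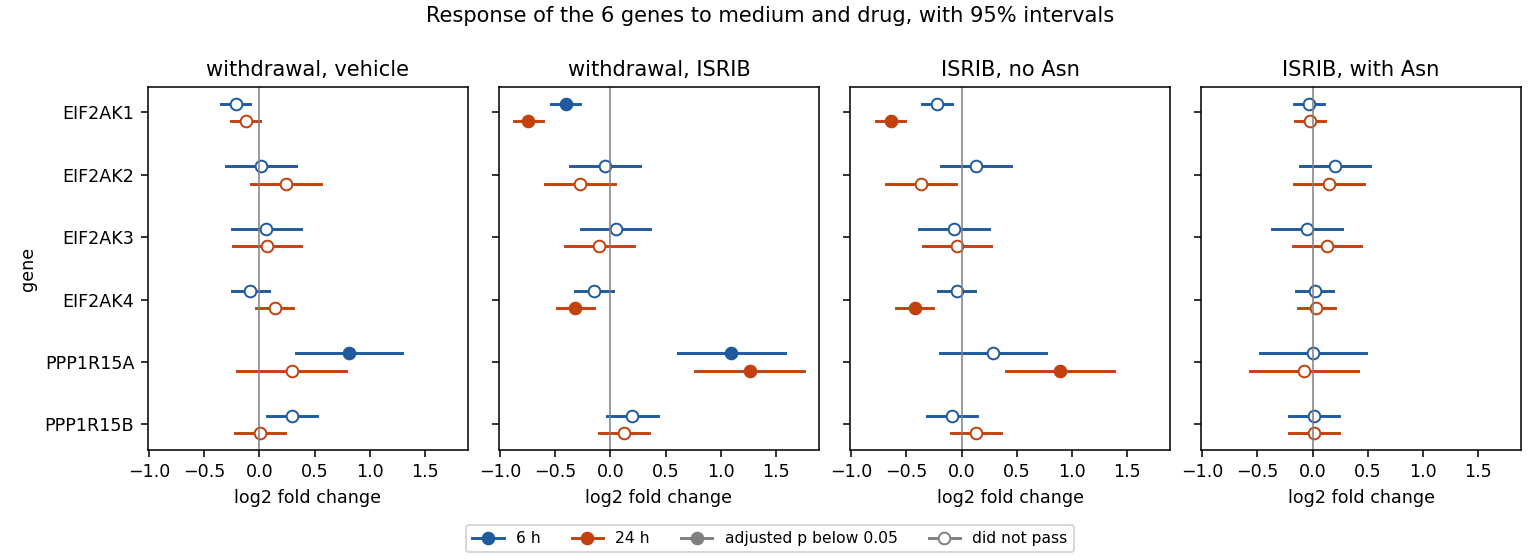
Log2 fold change (x axis) of the 6 genes (y axis) for withdrawal with vehicle, withdrawal with ISRIB, ISRIB without asparagine and ISRIB with asparagine, at 6 h (blue) and 24 h (orange). Points are estimates, bars 95% intervals, and filled points passed at an adjusted p below 0.05; under ISRIB without asparagine at 24 h EIF2AK1 fell (-0.64) and PPP1R15A rose (0.89), and no gene passed with ISRIB and asparagine.

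EIF2AK1, the heme-regulated kinase, was lowest where ISRIB and the lack of asparagine came together, and lower still at 24 h. At 6 h with vehicle it was at 206, 197 and 209.6 CPM with asparagine and at 181, 168 and 178 CPM without (replicates 1 to 3). With ISRIB at 6 h it was at 199.6, 199 and 200.3 CPM with asparagine and at 151, 157 and 144 CPM without. The groups without asparagine lay below those with it with vehicle and with ISRIB alike, with no overlap, and the ISRIB group lay below the vehicle group. The withdrawal change at 6 h was -0.40 ± 0.06 with ISRIB (edgeR adjusted p = 0.000876) and -0.21 ± 0.06 with vehicle, which did not pass (edgeR adjusted p = 0.0608). ISRIB against vehicle without asparagine at 6 h was at -0.22 ± 0.06 (edgeR adjusted p = 0.0795). The withdrawal change with ISRIB did not pass with the groups compared alone (adjusted p = 0.396), a setting in which 0% of all genes passed. It passed in 10 of the 11 alternatives and in 24 of 24 fits without 1 library. DESeq2 called both of the other changes, vehicle withdrawal and ISRIB against vehicle (adjusted p = 0.00210 and 0.00519).

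At 24 h EIF2AK1 was at 219, 207 and 226 CPM with vehicle and asparagine, and at 189.6, 204 and 203 CPM with vehicle and no asparagine. With ISRIB it was at 216, 214 and 209.9 CPM with asparagine and at 122, 128 and 133 CPM without. Every library with ISRIB and no asparagine lay below every other library of the study. EIF2AK1 fell by 0.74 ± 0.06 on the log2 scale on withdrawal with ISRIB (edgeR adjusted p = 6.49e-08) and by 0.64 ± 0.06 under ISRIB without asparagine (edgeR adjusted p = 6.55e-07), the latter a 1.56-fold lower level. Both calls held in each of the 24 fits that left out 1 library and in the 11 other alternatives tried. AIMP2, whose exons overlap on the other strand, had a mean of 35.6 CPM and was at 0.28 ± 0.18 under ISRIB without asparagine at 24 h, not passed.

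The interaction of medium and drug asked whether ISRIB acted differently with and without asparagine. At 24 h 2 of 6 genes passed, against 9.06% of all genes: EIF2AK1 at -0.62 ± 0.09 (edgeR adjusted p = 0.000235) and EIF2AK4 at -0.46 ± 0.11 (edgeR adjusted p = 0.0159). At 6 h 0 of 6 passed, against 0.718% of all genes; EIF2AK1 was at -0.19 ± 0.09 and was the 1 gene with an unadjusted edgeR p below 0.05, and DESeq2 and limma called 0. The ISRIB response without asparagine also differed between the times in 2 of 6 genes, against 7.59% of all genes, with EIF2AK1 at -0.42 ± 0.09 (edgeR adjusted p = 0.00715) and EIF2AK4 at -0.38 ± 0.11 (edgeR adjusted p = 0.0458). The difference for EIF2AK4 did not pass in 17 of the 24 fits without 1 library, nor with the groups compared alone (adjusted p = 0.0652). It passed in 9 of the 11 other alternatives, among which the highest adjusted p was 0.331.

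**Figure D2:**
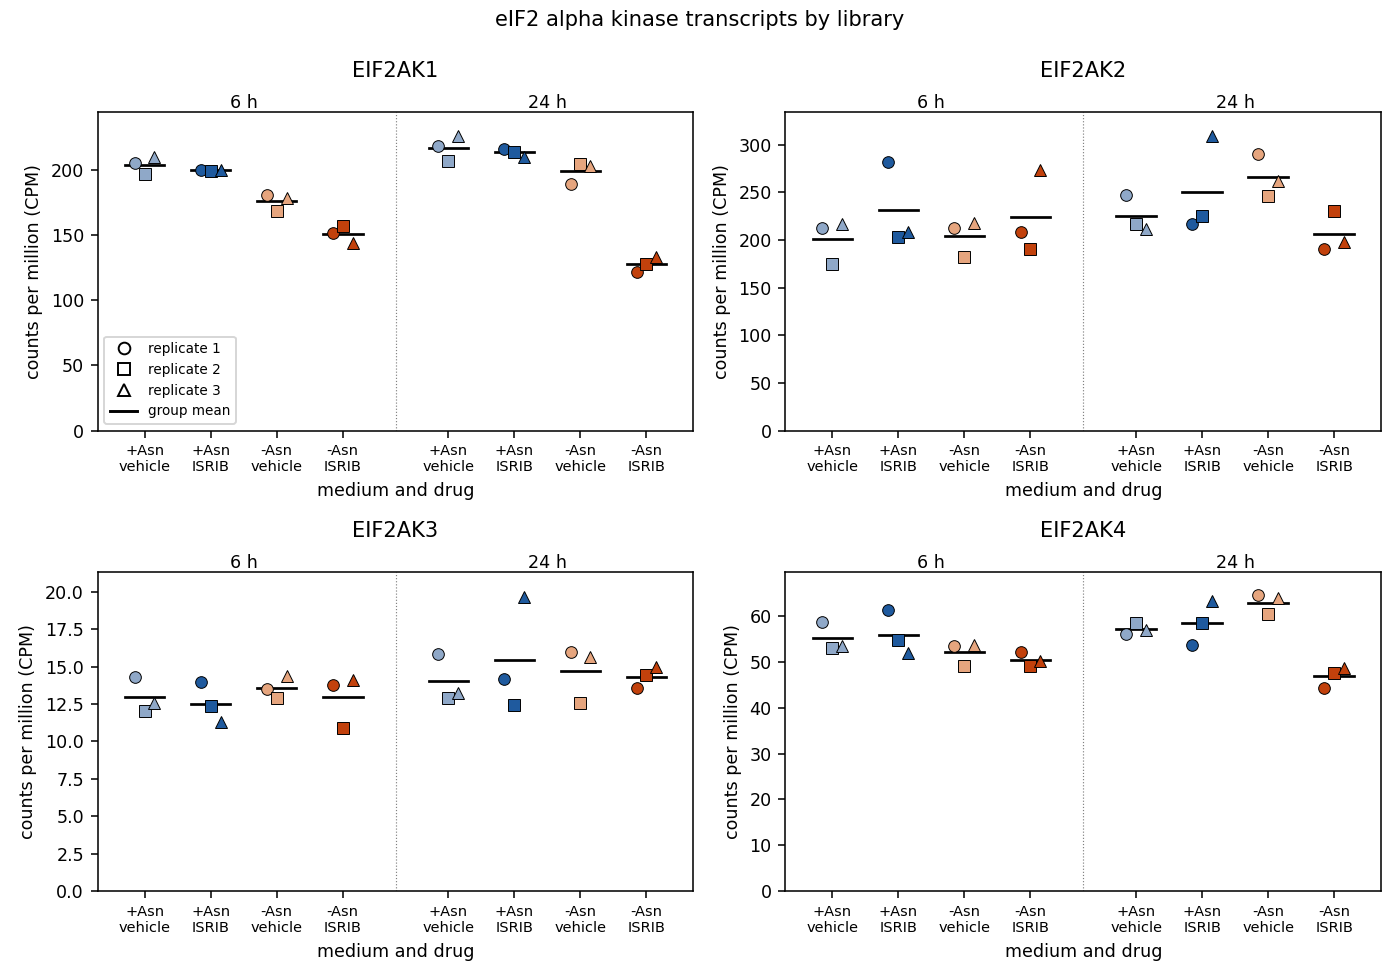
Level in CPM (y axes, from 0) of the 4 kinase transcripts in each library, by medium, drug and time (x axes); symbols are replicates and lines group means. EIF2AK1 and EIF2AK4 are lowest with ISRIB and no asparagine at 24 h (means of 128 and 46.9 CPM), and EIF2AK2 is highest in its group in the 3 libraries of steepest negative GC slope (282, 273 and 309 CPM).

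EIF2AK4, which encodes GCN2, the kinase of amino acid shortage, did not pass on withdrawal with vehicle at either time. At 6 h with vehicle it was at 58.7, 53.0 and 53.5 CPM with asparagine and at 53.4, 49.1 and 53.6 CPM without, and at 24 h at 56.0, 58.3 and 56.9 CPM with asparagine and at 64.5, 60.3 and 63.8 CPM without. The groups overlapped at 6 h and not at 24 h, and the changes of -0.08 ± 0.08 and 0.14 ± 0.08 did not pass; their 95% intervals ran from -0.25 to 0.08 and from -0.03 to 0.31. With ISRIB and no asparagine it was at 52.0, 49.2 and 50.2 CPM at 6 h and at 44.4, 47.6 and 48.6 CPM at 24 h. The last group held the lowest 3 values of all 24 libraries.

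Under ISRIB without asparagine EIF2AK4 fell by 0.42 ± 0.08 on the log2 scale at 24 h (edgeR adjusted p = 0.000865), and on withdrawal with ISRIB it fell by 0.32 ± 0.08 (edgeR adjusted p = 0.00714). With ISRIB and asparagine at 24 h it was at 53.6, 58.4 and 63.2 CPM, above all 3 libraries without asparagine. Withdrawal with ISRIB did not pass at 24 h with no filter on low counts or with the groups compared alone (adjusted p = 0.102 in both). The interaction at 24 h did not pass with no filter on low counts (adjusted p = 0.115) or when the first replicate of the ISRIB group without asparagine was left out (adjusted p = 0.0528).

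EIF2AK2, which encodes PKR, passed in none of the 16 comparisons, and its spread followed base composition. At 6 h with vehicle it was at 213, 175 and 216 CPM with asparagine and at 213, 182 and 217 CPM without. With ISRIB at 6 h it was at 282, 203 and 209 CPM with asparagine and at 208, 190.3 and 273 CPM without. All 4 groups overlapped, and the high values of 282 and 273 CPM came from libraries of steepest negative GC slope. At 24 h it was at 247, 217 and 211 CPM with vehicle and asparagine, at 216, 225 and 309 CPM with ISRIB and asparagine, and at 289.9, 246 and 262 CPM with vehicle and no asparagine. With ISRIB and no asparagine at 24 h it was at 191, 231 and 197 CPM, below all 3 vehicle libraries. That difference was -0.37 ± 0.15 (95% interval -0.68 to -0.05; edgeR adjusted p = 0.0888). It passed after a GC correction at a smaller size (-0.16 ± 0.06, adjusted p = 0.0372). It also passed once the 3 libraries with the steepest negative GC slopes were left out (-0.37 ± 0.09, adjusted p = 0.00363), none of which is in these groups. The 2 groups themselves differed in GC slope, at -0.17, -0.01 and -0.17 with vehicle and at 0.20, -0.05 and 0.15 with ISRIB. The part of this in the difference was not tested. Over the 24 libraries the log2 CPM of EIF2AK2 and the GC slope correlated at r = -0.897. The same r was -0.656 for EIF2AK3, -0.465 for EIF2AK4, -0.087 for EIF2AK1, 0.079 for PPP1R15A and 0.005 for PPP1R15B. The points share depth and base composition, so r is a description.

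EIF2AK3, which encodes PERK, was the least abundant of the 6, had the smallest ratio of highest to lowest group mean, and passed in none of the 16 comparisons. At 6 h it was at 14.3, 12.0 and 12.6 CPM with vehicle and asparagine and at 13.5, 12.9 and 14.3 CPM with vehicle and no asparagine. With ISRIB at 6 h it was at 13.9, 12.3 and 11.3 CPM with asparagine and at 13.8, 10.9 and 14.1 CPM without. At 24 h it was at 15.9, 12.9 and 13.2 CPM (vehicle, asparagine), 15.97, 12.6 and 15.6 CPM (vehicle, no asparagine), 14.1, 12.4 and 19.7 CPM (ISRIB, asparagine) and 13.6, 14.4 and 14.9 CPM (ISRIB, no asparagine). Every group overlapped its neighbours in the order of the means, and the highest value, 19.7 CPM, in the group of widest spread (CV 24.5%), was in the library of steepest negative GC slope. It had 202 to 358 counts per library, and the 95% interval of the vehicle withdrawal change at 6 h ran from -0.25 to 0.38.

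The promoters of the 2 phosphatase subunits are shown because both transcripts fell together from 6 to 24 h. They are RefSeq sequences on GRCh38.p14 from 250 bases before to 50 after the RefSeq start, 5′ to 3′ on the gene's strand; the entries matched 5 of the 6 genes (not EIF2AK1). Capitals mark a cAMP response element (TGACGTCA) in PPP1R15A at -58 to -51, and a composite element of ATF4 and CHOP (TGATGNAA) in PPP1R15B at -227 to -220, counted with the start base as 0.
PPP1R15A, chr19:48872171-48872470, plus strand: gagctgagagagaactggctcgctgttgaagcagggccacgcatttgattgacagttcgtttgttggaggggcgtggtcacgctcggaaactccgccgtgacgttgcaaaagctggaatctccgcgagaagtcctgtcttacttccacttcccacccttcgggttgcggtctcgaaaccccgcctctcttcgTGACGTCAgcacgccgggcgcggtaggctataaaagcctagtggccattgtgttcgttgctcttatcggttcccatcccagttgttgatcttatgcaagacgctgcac
PPP1R15B, chr1:204411768-204412067, minus strand: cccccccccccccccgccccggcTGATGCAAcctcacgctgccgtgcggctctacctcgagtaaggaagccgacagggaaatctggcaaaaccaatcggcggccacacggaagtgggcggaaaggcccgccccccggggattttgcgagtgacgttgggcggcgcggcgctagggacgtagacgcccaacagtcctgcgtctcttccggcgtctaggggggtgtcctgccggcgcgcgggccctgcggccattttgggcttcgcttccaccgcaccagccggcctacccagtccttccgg
Both strands were searched for exact matches (N is any base), so near variants of these elements were not counted. TGACGTCA was in 1.85% of the 35116 promoters of the same length, TGATGNAA in 3.62%, the half-site TGACG (which overlaps TGACGTCA) in 24.6%, and the core of the interferon response element, AAANNGAAA, in 10.5%. TGACG also stood at -152 in PPP1R15A and at -101 in PPP1R15B, and EIF2AK2, an interferon-stimulated gene, held AAAACGAAA at -5 to 3. The windows of EIF2AK3 and EIF2AK4 held none of these letters. A match is a description of sequence, not of binding.

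PPP1R15A, the stress-induced phosphatase subunit, was higher without asparagine at 6 h under either drug. With vehicle at 6 h it was at 143, 231 and 211 CPM with asparagine and at 254, 421 and 351 CPM without (means of 195 ± 46.0 and 342 ± 84.0 CPM, SD, n = 3). With ISRIB at 6 h it was at 150.4, 216 and 219 CPM with asparagine and at 294, 476 and 481 CPM without (195 ± 38.8 and 417 ± 107 CPM). The groups with and without asparagine did not overlap under either drug, and replicate 1 was the lowest library in each of the 4 groups. Within a replicate number the ratio without to with asparagine was 1.77, 1.82 and 1.66 with vehicle.

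The vehicle change of 0.81 ± 0.23 was close to the threshold (edgeR adjusted p = 0.0478), and with ISRIB the change was 1.10 ± 0.23 (edgeR adjusted p = 0.0112). With vehicle the call was lost under RLE scaling (adjusted p = 0.0518), in limma (adjusted p = 0.0572) and in 17 of 24 fits without 1 library, among them 5 of the 6 libraries compared (all but replicate 1 without asparagine) and 12 of the 18 others. The vehicle call passed in 9 of the 11 alternatives other than left-out libraries. With ISRIB the call was lost when those 3 libraries of steep GC slope were left out (0.81, adjusted p = 0.116). It was also lost with the groups compared alone (adjusted p = 0.224), where 0% of all genes passed, and without replicate 1 with asparagine or replicate 2 or 3 without it (adjusted p = 0.0561 to 0.0656). The ISRIB call passed in 9 of the 11 alternatives and in 21 of 24 fits without 1 library. ISRIB against vehicle without asparagine at 6 h was at 0.29 ± 0.23, with a 95% interval from -0.19 to 0.76, and did not pass. With asparagine ISRIB left it at -0.00 ± 0.23 (95% interval -0.48 to 0.48) at 6 h and at -0.08 ± 0.24 (95% interval -0.57 to 0.41) at 24 h.

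**Figure D3:**
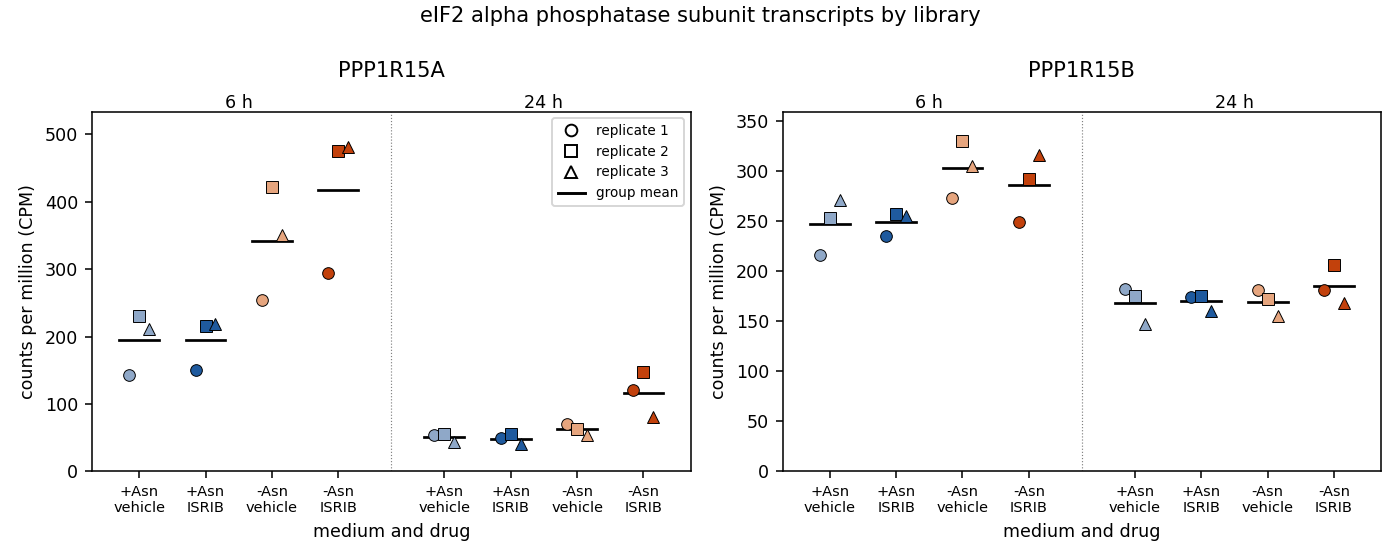
Level in CPM (y axes, from 0) of PPP1R15A and PPP1R15B in each library, by medium, drug and time (x axes); symbols are replicates and lines group means. PPP1R15A reaches 481 CPM at 6 h (ISRIB, no asparagine) and at most 147 CPM at 24 h, and PPP1R15B is higher in every library at 6 h than in any at 24 h.

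At 24 h PPP1R15A was highest where ISRIB and the lack of asparagine came together. It was at 53.4, 55.4 and 44.0 CPM with vehicle and asparagine, at 70.2, 63.4 and 53.6 CPM with vehicle and no asparagine, and at 49.6, 54.6 and 40.5 CPM with ISRIB and asparagine. With ISRIB and no asparagine it was at 120.1, 147 and 80.3 CPM, above all 9 other libraries of that time, and replicate 3 was the lowest library in each of the 4 groups. It rose by 0.89 ± 0.24 under ISRIB without asparagine (edgeR adjusted p = 0.0101) and by 1.26 ± 0.24 on withdrawal with ISRIB (edgeR adjusted p = 0.000635), against 0.29 ± 0.24 with vehicle, not passed. The rise under ISRIB did not pass without replicate 2 of ISRIB (adjusted p = 0.0562) or replicate 3 of vehicle (adjusted p = 0.0575). The interaction at 24 h was 0.97 ± 0.33 (95% interval 0.28 to 1.66; edgeR adjusted p = 0.0675), not passed. It passed in 5 of the 11 alternatives, among them DESeq2 (adjusted p = 0.0416), and in 1 of 24 fits without 1 library.

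PPP1R15B, the constitutive phosphatase subunit, passed for time and not for medium or drug. At 6 h it was at 216, 253 and 271 CPM with vehicle and asparagine, 273, 329.6 and 305 CPM with vehicle and no asparagine, 235, 257 and 255 CPM with ISRIB and asparagine, and 249, 292 and 316 CPM with ISRIB and no asparagine. The vehicle groups did not overlap at 6 h, but the change of 0.29 ± 0.11 did not pass (95% interval 0.07 to 0.52; edgeR adjusted p = 0.152). Within a replicate number the ratio without to with asparagine was 1.26, 1.30 and 1.13, and a replicate block within each time, added after seeing the data, called it (0.30 ± 0.07, adjusted p = 0.0120). At 24 h the 4 groups overlapped, with means of 168 ± 18.5, 169 ± 13.0, 169.7 ± 8.32 and 185 ± 19.5 CPM (SD, n = 3) in the same order. ISRIB without asparagine at 24 h was at 0.13 ± 0.11, with a 95% interval from -0.10 to 0.36.

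Both subunits were lower at 24 h than at 6 h in every combination of medium and drug. With vehicle and asparagine, 2 of 6 genes passed for time (18.8% of all genes), and PPP1R15A fell by 1.94 ± 0.24 and PPP1R15B fell by 0.55 ± 0.11 on the log2 scale. With ISRIB and asparagine the same 2 of 6 passed (17.4% of all genes), at -2.01 ± 0.24 and -0.55 ± 0.11. Without asparagine they were at -2.46 ± 0.24 and -0.84 ± 0.11 with vehicle and at -1.85 ± 0.24 and -0.63 ± 0.11 with ISRIB. In each of the 4 combinations, neither gene's libraries at 24 h overlapped those at 6 h, a description without its share over all genes.

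Where asparagine was absent, 2 kinases also passed for time. With vehicle 4 of 6 genes passed (25.4% of all genes), and EIF2AK1 (0.18 ± 0.06, edgeR adjusted p = 0.0457) and EIF2AK4 (0.27 ± 0.08, edgeR adjusted p = 0.0156) rose from 6 to 24 h. With ISRIB 3 of 6 passed (32.3% of all genes), and EIF2AK1 fell by 0.24 ± 0.06 on the log2 scale (edgeR adjusted p = 0.00635). The rise of EIF2AK1 was lost in 17 of 24 fits without 1 library. That of EIF2AK4 was lost without replicate 1 or 3 at 24 h or replicate 2 at 6 h (adjusted p = 0.0525 to 0.0870). The rise of EIF2AK4 passed in 10 of 11 other alternatives, among which the highest adjusted p was 0.217. The fall of EIF2AK1 with ISRIB was lost with the groups compared alone (adjusted p = 0.141) and with no filter on low counts (adjusted p = 0.205). EIF2AK2 with vehicle was at 0.38 ± 0.15 from 6 to 24 h, with no overlap, and did not pass (edgeR adjusted p = 0.0705), but it passed in 8 of 11 alternatives, among them the GC correction (0.27 ± 0.06, adjusted p = 0.000705). The vehicle withdrawal response did not differ between the times in any of the 6 (0 of 6, against 1.22% of all genes; 0 with an unadjusted edgeR p below 0.05, and 0 calls by DESeq2 or limma). PPP1R15A was at -0.52 ± 0.33 in that test, with a 95% interval from -1.20 to 0.17.

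The phosphatase subunits changed places between the times in the 3 groups other than ISRIB without asparagine. The ratio of PPP1R15A to PPP1R15B in RPKM was 1.33 ± 0.213 with vehicle and asparagine at 6 h and 0.511 ± 0.0204 at 24 h (SD, n = 3). Without asparagine it was 1.89 ± 0.297 with vehicle and 2.44 ± 0.399 with ISRIB at 6 h. At 24 h it was 0.621 ± 0.0361 with vehicle and 1.05 ± 0.209 with ISRIB. PPP1R15A was the more abundant of the pair in all 12 libraries at 6 h, and at 24 h in 2 of 12, both with ISRIB and no asparagine. With the length of the longest transcript the third library of that group also lay above 1 (33.8 against 32.1 RPKM). The ratio is a description and was not tested.

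**Figure D4:**
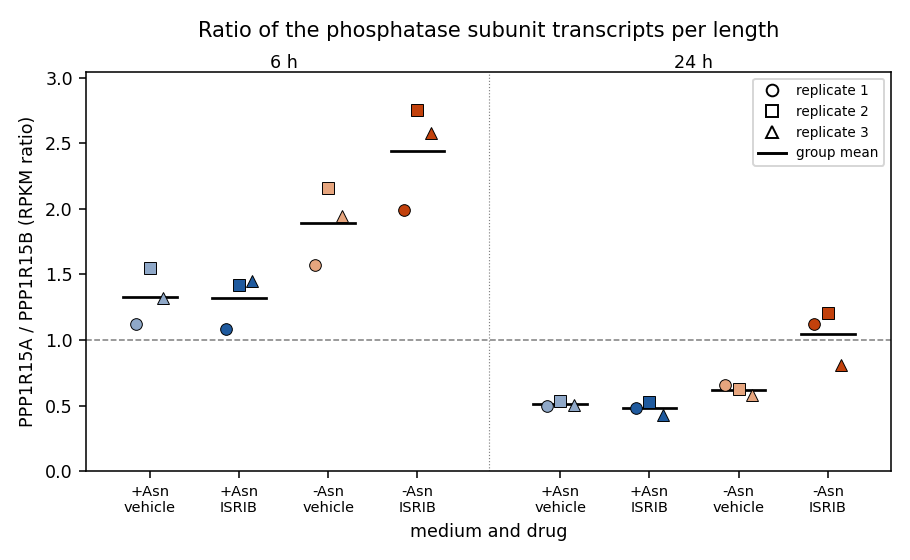
Ratio of PPP1R15A to PPP1R15B in RPKM (y axis, from 0) in each library, by medium, drug and time (x axis); symbols are replicates, lines group means, and the dashed line marks equal levels. All libraries at 6 h lie above the line, and at 24 h 2 libraries with ISRIB and no asparagine do (group mean 1.05).

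ATF4 and 9 of its known targets gave the context of the response. On withdrawal with vehicle at 6 h 9 of 10 rose, against 4.57% of all genes that passed (median 2.02 over the list and 0.01 over all genes), among them ASNS (2.52 ± 0.10), TRIB3 (1.94 ± 0.13) and VLDLR (2.58 ± 0.20), and CEBPB was at 0.23 ± 0.22. With ISRIB 0 of 10 passed, against 2.30% of all genes (median -0.16 over the list and 0.00 over all genes), and ASNS was at -0.04 ± 0.10 while PPP1R15A rose by 1.10. Under ISRIB without asparagine 9 of 10 fell at 6 h, where 2.19% of all genes passed (median -2.36), while PPP1R15A was at 0.29 ± 0.23. At 24 h, where 21.7% of all genes passed, 1 of 10 rose and 3 fell, with ASNS at -1.67 ± 0.10, ATF4 at -0.34 ± 0.10 and DDIT3, which encodes CHOP, at 0.60 ± 0.16. Whether PPP1R15A differed from these genes was not tested.

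**Figure D5:**
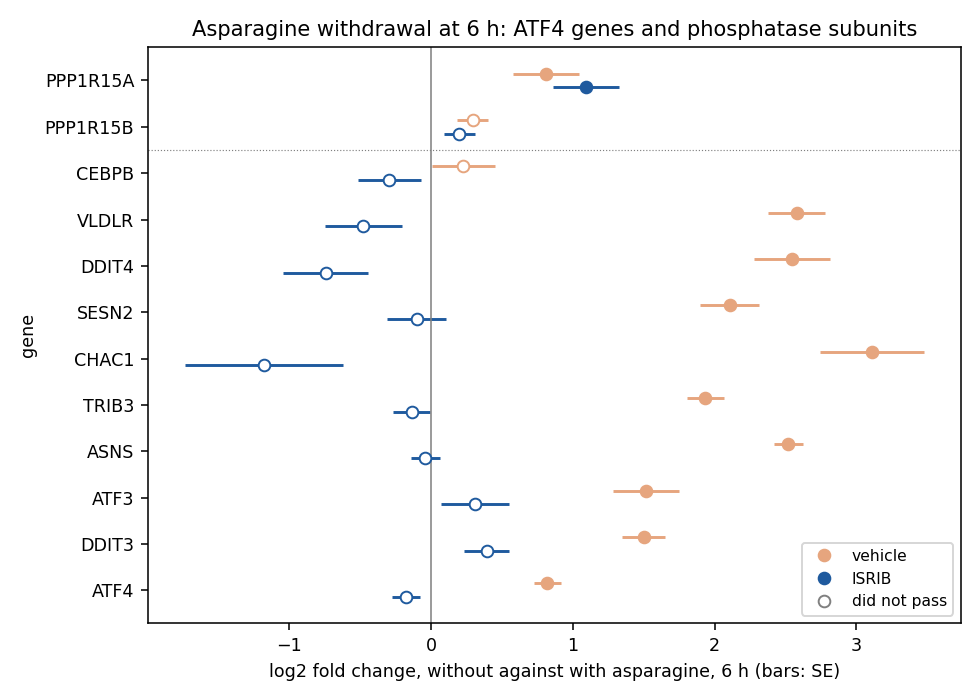
Log2 fold change (x axis; bars are SE) on asparagine withdrawal at 6 h of PPP1R15A, PPP1R15B, ATF4 and 9 of its targets (y axis), with vehicle (orange) and with ISRIB (blue); open points did not pass. With ISRIB PPP1R15A is the only filled point (1.10), and with vehicle 9 of the 10 genes of ATF4 and its targets are filled.

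The calls among genes that act next to the kinases and phosphatases stand beside the share of all genes that passed at 6 h. That share was 4.57% on withdrawal with vehicle and 2.30% on withdrawal with ISRIB. Under ISRIB it was 2.19% without asparagine and 0% with it. The lists were not tested against these shares. None of 3 eIF2 subunits, 5 eIF2B subunits and 3 PP1 catalytic subunits passed on withdrawal or under ISRIB at 6 h; EIF2S1 was at 0.05 ± 0.13, EIF2S2 (the largest estimate, named after its value was seen) at 0.50 ± 0.17 with an edgeR adjusted p of 0.101, EIF2B3 at -0.02 ± 0.15 and PPP1CA at -0.05 ± 0.12 on withdrawal with vehicle. Of 10 regulators of the kinases, HSPA5 (BiP, which restrains PERK) rose by 0.49 ± 0.11 on withdrawal with vehicle and fell by 0.59 ± 0.11 under ISRIB without asparagine at 6 h, and the other 9 did not pass in either. Under ISRIB without asparagine at 24 h PRKRA (PACT, an activator of PKR; -0.62 ± 0.09), IMPACT (an inhibitor of GCN2; -0.65 ± 0.11) and HSPA5 (-0.41 ± 0.11) fell, and DELE1 was at -0.08 ± 0.10. There EIF2B4 (0.55 ± 0.11), EIF2B2 (0.21 ± 0.07) and PPP1CA (0.53 ± 0.12) rose, and 0 of 3 eIF2 subunits passed. Of 13 interferon-stimulated genes tested, 5 fell and 0 rose in that comparison, where 21.7% of all genes passed, among them OAS3 (-0.62 ± 0.09) and MX1 (-0.97 ± 0.22), while STAT2 was at -0.03 ± 0.12. The median change was -0.14 for kinase regulators, -0.03 for interferon-stimulated genes and 0.00 for all genes. COL1A1 (0.96 ± 0.22) rose and PECAM1 (-1.62 ± 0.32) fell in that comparison, 0 of 7 epithelial markers passed, and the part of these in the changes of the 6 genes was not tested.

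The genes most alike in pattern were taken among 9872 other protein-coding genes with a mean of at least 5 CPM, by Pearson's r of log2 CPM over the 24 libraries. These points share library, depth and base composition, so r is a description. PPP1R15A was most like ST3GAL1 (0.988), CHIC2 (0.987) and ABL2 (0.984), and PPP1R15B most like AREG (0.985) and HBEGF (0.980), ligands of the EGF receptor, and PIP5K1A (0.978). The 2 phosphatase subunits had r = 0.962 with each other. EIF2AK1 was most like PGM1 (0.948), AKR1C2 (0.944) and MRPS11 (0.942), and EIF2AK4 most like UBP1 (0.921, and 0.736 on GC-corrected values), MORC4 (0.918) and DOCK10 (0.917). EIF2AK2 was most like RAD50 (0.974), BRCC3 (0.970) and ROCK2 (0.960), which fell to 0.831, 0.769 and 0.804 on GC-corrected values. EIF2AK3 was most like MOSPD2 (0.866), ZFC3H1 (0.852) and FNBP1L (0.849), and these fell to between 0.674 and 0.750.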

How the data were processed

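RNA was sequenced from 24 PC9 libraries, in 8 groups of 3. The authors deposited a table of whole-number counts per gene; reads were processed with Bowtie2, featureCounts and DESeq2 on hg38, per the submitters' processing notes, with versions and settings not given in the sources used here. A second table deposited by the authors held log2 values from a variance-stabilising transformation, used only as an alternative input. Gene places, lengths and GC content came from GENCODE 29.

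Counts were tested with edgeR 4.0.16 in R 4.3.3: TMM scaling, the default expression filter, 1 mean per group over all 24 libraries, the quasi-likelihood F test with 16 residual degrees of freedom, and Benjamini-Hochberg adjustment over 17409 genes at 0.05. CPM used TMM-scaled library sizes, SE was the log2 change divided by the root of F, and log2 CPM for likeness used a prior count of 2. The 95% intervals are for the difference of group means, with the spread between libraries as the model estimates it. The script was tested on simulated data. The library totals set the counting precision, and p-values weigh a difference of group means against the spread between these samples.

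Alternatives were DESeq2 1.42.0, limma 3.58.1 on the deposited log2 values, RLE scaling, no filter, a filter of 5 CPM in 3 libraries, the compared groups alone, a replicate block, a GC correction (99.5% of genes tested had a GC value) with and without the block, leaving out the 3 libraries of steepest negative GC slope, and leaving out each library. A block within each time was added after seeing the data. The labels give replicates numbers without saying what they mark. Deviations of same-numbered libraries correlated above 0.1 in all 3 pairs in 3 comparisons: vehicle withdrawal, early (6 h, 0.304 to 0.339) and late (24 h, 0.187 to 0.350), and the early ISRIB response of deprived cells (0.327 to 0.470). They did not in the other 9 comparisons of groups.

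All 6 genes were named in every comparison; of each pathway list, up to 3 genes with the smallest adjusted p among those that passed, and 1 of at least 5 CPM with the largest; and for each gene the 3 most alike in pattern. 1 gene that this rule names is not reported here. The genes and lists were chosen with earlier results of these data known.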

Additional observations from a re-analysis of the deposited data

Results flagged for a closer look

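For EIF2AK1 and EIF2AK4 the response to ISRIB differed between groups by a test of the difference itself (edgeR quasi-likelihood test). At 24 h the response differed between media by -0.62 for EIF2AK1 and by -0.46 for EIF2AK4: it was -0.64 without and -0.02 with asparagine for EIF2AK1, and -0.42 and 0.03 for EIF2AK4. Without asparagine the response differed between 24 and 6 h by -0.42 for EIF2AK1, from -0.22 at 6 h to -0.64 at 24 h. For EIF2AK4 that difference was -0.38, from -0.04 to -0.42. It was lost in 17 of 24 fits without 1 library and passed in 9 of 11 other alternatives. Groups of 3 were too small to be tested for single libraries that stand apart.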

How the results depend on the processing

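Of 96 changes of the 6 genes, 24 passed. Over the 16 comparisons, several of which share groups, the share of all genes that passed ran from 0 to 32.3%. Of the 1056 values from alternatives other than left-out libraries, 1004 stayed on their side of the threshold, 16 no longer passed and 36 newly passed. A change of sign with a pass in either fit occurred in 0. Over 2304 values from left-out libraries these were 2238, 60, 6 and 0. Changes of sign where neither fit passed did occur and are counted among those that stayed. EIF2AK2 on vehicle withdrawal at 6 h, for example, was at 0.02 and reached -0.11 among the alternatives. The number of the 6 genes that passed for vehicle withdrawal at 6 h was 2 with DESeq2, the 5 CPM filter, the GC correction, the GC correction with the replicate block, and without the 3 libraries of steepest negative GC slope, 0 with RLE scaling or limma, 3 with the block within each time (added after seeing the data), and 0 to 2 without 1 library. For withdrawal with ISRIB at 6 h it was 0 with the groups alone, where 0% of all genes passed. It was 1 without the 3 libraries, and 1 to 2 without 1 library. For ISRIB without asparagine at 6 h it was 1 (EIF2AK1) with DESeq2, the 5 CPM filter and the GC correction, with or without the block. At 24 h it was 5 for the GC correction with the replicate block, and 2 to 4 without 1 library. Without 1 library it was 1 to 3 for the interaction at 24 h, 2 to 5 for time with vehicle and no asparagine, and 1 to 2 for the difference in ISRIB response between times, which gave 1 with the groups alone.

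In 3 comparisons same-numbered libraries correlated above 0.1 in all 3 pairs, though the labels do not say that the numbers pair them. In these the replicate block over both times changed no call of the 6 genes (PPP1R15A for vehicle withdrawal at 6 h: 0.81, edgeR adjusted p = 0.0185). There the block within each time also called EIF2AK1 (-0.21, adjusted p = 0.0460) and PPP1R15B (0.30, adjusted p = 0.0120). In the other comparisons the block gave PPP1R15A an interaction at 24 h of 0.95 (adjusted p = 0.0360). It gave EIF2AK2 a change with time of 0.38 with vehicle and no asparagine (adjusted p = 0.0493), which passed in 8 of 11 alternatives. No other call changed. With no filter on low counts EIF2AK1 did not pass for time without asparagine (adjusted p = 0.501 with vehicle, 0.205 with ISRIB) or for the difference in ISRIB response (0.148). The share of all genes called varied with the setting, from 2.42 to 12.6% for vehicle withdrawal at 6 h and from 10.7 to 36.5% for ISRIB without asparagine at 24 h. The cause of these shifts was not tested.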
